A study of Mus musculus with 23 samples.

Results

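Ankrd1, Amotl2, Amot, Lats2, Yap1, Wwtr1, Tead1, Tead2, Tead4 and Axl are 10 genes of the YAP and TEAD pathway among 53607 gene rows counted in mouse embryonic stem cells. They were picked by name as parts or known targets of the pathway, with Ankrd1 in the lead because it was higher in libraries labelled ERF knockout while RAS was present. Those values chose the genes, so the comparison of ERF knockout with ERF wild type at RAS present is given below as a description with no test. Ankrd1 is likewise untested wherever a RAS-present library enters, and its difference between ERF labels at RAS deleted is also given with no p, since it was chosen for being higher under the knockout label. Its place among the calls counted below follows from that choice and supports nothing. All 10 genes were among the 20372 genes that passed the low-count filter, Ankrd1 through the libraries labelled ERF knockout alone, since its highest count under ERF wild type was 14.

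Yap1 and Wwtr1 (the gene of TAZ) encode coactivators that cannot bind DNA themselves and act through the TEAD transcription factors. The Hippo kinases LATS1 and LATS2 phosphorylate both coactivators and hold them in the cytoplasm, and the angiomotins (Amot, Amotl1, Amotl2) bind them at cell junctions. Ankrd1 and Axl are classical YAP targets, and Amotl2 and Lats2 are both regulators and targets. In the early mouse embryo TEAD4 is known for its role in the trophectoderm, and in stem cells TEAD factors are known partners of the pluripotency network.

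The cells were mouse embryonic stem cells of the Raslox/lox background, which carry H-Ras-/- and N-Ras-/- alleles and Ubiq-CreERT2, a Cre recombinase switched on by tamoxifen. A further floxed target gene of this background is not reported here. All 8 groups share these alleles, the controls included. The groups cross 3 factors: ERF, an ETS-family repressor that ERK inactivates (labelled WT or KO); RAS (present in untreated cells, deleted in cells given 4-hydroxytamoxifen for 6 days); and medium. The medium was N2B27 with 2i/LIF (2iL: PD0325901 against MEK, CHIR99021 against GSK3, and LIF) or, on fibronectin for 48 hours, N2B27 with 1% KOSR, FGF2 and Activin A (FA), which drives differentiation to epiblast-like cells. Each group held 3 libraries, but for the FA cells of wild type ERF and intact RAS, which gave 2. The drug and the deletion cannot be told apart in this design, and how many ERF knockout clones were used is not given in the sources used here.

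Library totals ran from 16221654 to 29874238 counts. Levels are given as CPM, counts scaled to a common library size, and comparisons between genes as TPM, which also divides by transcript length. The knockout label was not matched by a loss of Erf reads: Erf averaged 116 and 152 CPM in the 2iL groups labelled knockout and 77.6 and 87.8 CPM in those labelled wild type. In FA it averaged 57.5 and 60.6 CPM against 63.1 and 69.7 CPM, with overlapping ranges, so "ERF knockout" stands here for the label. Hras and Nras, both labelled -/-, still had 12 to 25.9 and 5.32 to 52.3 CPM. The summed level of 5 pluripotency markers ran from 850 to 1751 CPM over all libraries, and all 5 were detected in every group. In 4 ERF wild type libraries, those numbered 1, the genes of chromosome 8 stood 0.275 to 0.333 (median log2 difference) above the other replicates. None of the 10 genes lies on that chromosome, and results that move without these libraries are named below.

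The stretch before the start site of Ankrd1 is printed because Ankrd1 leads the set. The gene spans chr19:36111961-36120099 on the minus strand (GENCODE, GRCm38). Promoter windows of 300 bases (250 before and 50 after the start) were taken from RefSeq, build GRCm38.p6, and matched 8 of the 10 genes in 10 windows. Tead1 and Tead4 were not matched. Capitals mark GGAATG or its reverse complement CATTCC, the core of the site that TEAD proteins are known to bind. The 2 annotations place the start of Ankrd1 differently, and the stretch before the RefSeq start lies inside the GENCODE span. The windows of Amotl2, Amot and Lats2 also lie wholly inside the GENCODE spans, so a match or its lack there depends on the start used. Positions here count from the RefSeq start. The 250 bases before it, chr19:36119845-36120094 on the minus strand and written 5′ to 3′ along the gene, hold 2 matches, with first bases at positions -210 and -123 from the start.
Ankrd1: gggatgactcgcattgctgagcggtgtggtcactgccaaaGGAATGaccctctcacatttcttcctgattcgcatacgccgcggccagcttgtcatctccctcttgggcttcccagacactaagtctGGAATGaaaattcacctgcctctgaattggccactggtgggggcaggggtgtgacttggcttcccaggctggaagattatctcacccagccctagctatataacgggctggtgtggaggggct
The matches in the other genes are shown with 10 bases on each side, to let the flanks be compared. They lie at position -65 in Amotl2 (chr9:102717729-102717754, plus strand), -141 in Yap1 (chr9:8004722-8004747, minus strand), -136 and -170 from 2 neighbouring starts of Wwtr1 (chr3:57576031-57576056, minus strand), 5 in Lats2 (chr14:57746104-57746129, minus strand) and -233 in Axl (chr7:25788951-25788976, minus strand).
Amotl2: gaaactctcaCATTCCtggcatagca
Yap1: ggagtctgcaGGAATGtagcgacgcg
Wwtr1: taaactcaaaGGAATGcagataggcg
Lats2: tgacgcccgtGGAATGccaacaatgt
Axl: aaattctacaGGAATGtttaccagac
By gene, 6 of 8 members (75%) held GGAATG on either strand, against 16.6% of the 27025 genes in the table. Amot and Tead2 held none. By window, 7 of 10 held it, against 14.7% of all 32851 promoters. The letters CCGGAA (either strand), a form of the ETS site, were in 0 of the 10 windows and in 14.9% of all promoters. Other forms of the ETS site were not counted, so their absence is not shown. The AP-1 motif TGANTCA was in 0 windows and in 7.81% of all. Several of these genes are known YAP targets and were chosen as such, and a match describes letters in a window, not a bound site.

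Ankrd1 encodes an ankyrin-repeat protein best known from heart and muscle, where it binds titin and acts in the nucleus. Its reads came almost wholly from libraries labelled ERF knockout, as the plot of Ankrd1 by library shows. With ERF wild type in 2iL it had 0, 1 and 0 counts at RAS present and 0, 0 and 0 at RAS deleted. In FA with ERF wild type it had 0 and 1 counts at RAS present and 3, 14 and 6 at RAS deleted. In all, 6 of the 11 ERF wild type libraries had no Ankrd1 read and 9 had 3 or fewer.

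Under the ERF knockout label every library held Ankrd1 reads, from 23 to 257 counts. In 2iL the levels were 3.32, 8.45 and 10.8 CPM at RAS present and 1.31, 3.75 and 4.11 CPM at RAS deleted. In FA they were 4.16, 5.82 and 10.2 CPM at RAS present and 0.998, 3.63 and 4.85 CPM at RAS deleted. The lowest of these 12 libraries (0.998 CPM) lay above the highest of the ERF wild type libraries (0.567 CPM). On the per-length TPM scale the 12 libraries ran from 0.672 to 5.93, so Ankrd1 was a low transcript even where it was highest.

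**Figure D1:**
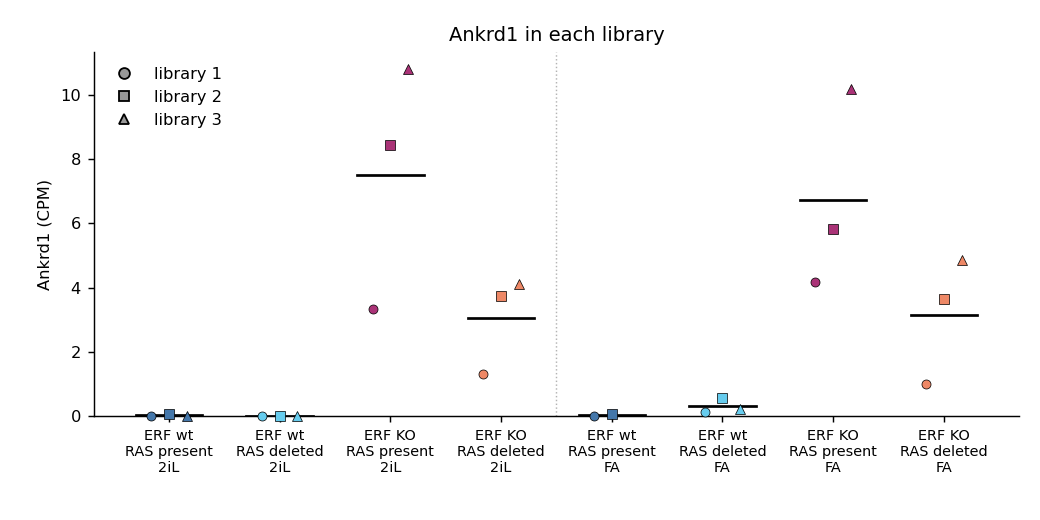
Ankrd1 in CPM (linear axis) in each of the 23 libraries, with 1 column per group, a line at each group mean and a marker shape for the library number. The 12 libraries labelled ERF knockout sit between 0.998 and 10.8 CPM, and the ERF wild type libraries at 0.567 CPM or below.

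The RAS-deleted libraries, from the same labelled lines after the drug, had the same direction, which is a description because Ankrd1 was chosen for it. In 2iL, Ankrd1 averaged 3.06 ± 1.52 CPM (SD, n = 3) under the knockout label against no read in 3 wild type libraries, at least 20-fold higher against a floor of 3 counts per library. In FA it averaged 3.16 ± 1.97 CPM (SD, n = 3) against 0.305 ± 0.231 CPM (SD, n = 3), a log2 difference of 3.33. The groups did not overlap in either medium. In bulk libraries more cells with Ankrd1 and more Ankrd1 RNA per cell cannot be told apart.

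The values at RAS present, which chose the gene, averaged 7.51 ± 3.82 CPM (SD, n = 3) in 2iL and 6.74 ± 3.14 CPM (SD, n = 3) in FA under the knockout label. The wild type groups there rest on 1 count each, so no fold is given. Under the knockout label at RAS deleted, FA minus 2iL was 0.04 on the log2 scale (SE 0.59, adjusted p = 0.964, edgeR quasi-likelihood test). With ERF wild type and RAS deleted, FA stood at 3, 14 and 6 counts and 2iL at 0, at least 1.99-fold higher against the floor. No p is given for these wild type libraries or for the interaction with ERF label, because Ankrd1 passed the low-count filter through the knockout libraries alone.

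Library number went with the Ankrd1 level. In 4 of 4 knockout groups the library numbered 1 was lowest and the library numbered 3 was highest. In the same 4 groups library 1 had the genes of chromosome 11 above the other replicates, by a median log2 difference of 0.158 and 0.127 at RAS present (2iL, FA) and 0.084 and 0.0574 at RAS deleted. Without these libraries the knockout levels of Ankrd1 ran from 3.63 to 10.8 CPM. The part of this difference in the Ankrd1 level was not tested. F3 and Tagln, chosen by likeness to Ankrd1, had the same lowest and highest libraries in 4 of 4 knockout groups. Between libraries of equal number, Ankrd1 was lower at RAS deleted than at RAS present in 6 of 6 pairs, with ratios from 0.24 to 0.624, while the group ranges overlapped in both media. In FA these libraries share only a number, since the check of the pairing was not met there. No test is given, because these RAS-present libraries chose the gene.

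Ordered by group mean, Ankrd1 was lowest in the 2iL group with ERF wild type and RAS deleted (0 CPM), then in the RAS-present wild type groups in 2iL (0.0198 CPM) and FA (0.0237 CPM), and these 3 groups overlapped in that order. The FA group with ERF wild type and RAS deleted (0.305 CPM) stood apart from the groups on both sides. The 4 knockout groups followed, from 3.06 to 7.51 CPM, and each overlapped the next. Of its muscle paralogs Ankrd2 and Ankrd23, 1 of 2 passed the low-count filter.

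Among the genes whose levels went most closely with Ankrd1 over the 23 libraries, of 12246 genes compared on log2(CPM + 1), were Clu (Pearson r = 0.89), F3 (0.87), Flt1 (0.87) and Tagln (0.86). These libraries share groups, so they are not independent points. F3, the coagulation tissue factor, averaged 16.1 CPM in 2iL under the knockout label at RAS present and 4.17 CPM under the wild type label. Tagln, an actin-binding protein of smooth muscle, averaged 7.88 and 0.309 CPM in those groups.

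Tagln is also part of a list of 8 fibroblast and smooth muscle markers, whose summed level ran from 3.12 to 6.73 CPM over the ERF wild type libraries and from 7.57 to 43.6 CPM over those labelled knockout. Of that list, Col3a1 and Postn were at or under 3 counts in every library, and Acta2 (smooth muscle actin) averaged up to 5.16 CPM. In 2iL Tagln and Thy1 carried the higher sum (Thy1 at 3.38 and 3.78 CPM against 1.48 and 1.41 CPM with ERF wild type), and in FA Tagln and Acta2. The collagen Col1a1 was lower under the knockout label in 2iL (1.34 and 1.67 against 2.83 and 3.4 CPM), close at RAS present in FA (2.37 against 2.52 CPM) and higher at RAS deleted in FA (3.08 against 1.06 CPM). The 7 primitive endoderm markers, led by the basement membrane collagen Col4a1, summed in 2iL to 26.5 to 52.3 CPM with ERF wild type and to 85.1 to 539 CPM under the knockout label. In FA those sums ran from 116 to 420 and from 121 to 466 CPM. In 2iL Col4a1 averaged 296 and 128 CPM under the knockout label against 23.9 and 15.8 CPM. Gata6 there averaged 5.73 and 3.95 CPM against 4.97 and 3.08 CPM. At RAS present in FA, Col4a1 (283 against 189 CPM) and Sox17 (4.44 against 3.45 CPM) were higher under the knockout label. The other markers were lower there, among them Dab2 (46.2 against 69 CPM). At RAS deleted in FA each of the 7 averaged higher, as in 2iL. The 7 cardiac muscle markers summed to at most 14.1 CPM in any library, with Actc1 or Tnnt2 at or under 3 counts in 7 of 8 groups. The 7 trophoblast markers summed to 46.5 to 59.6 CPM under the knockout label against 112 to 135 CPM in 2iL, and to 21.7 to 28.6 CPM against 33.8 to 76.8 CPM in FA. In 2iL that sum was mostly Tfap2c (40.6 and 47.4 CPM against 111 and 105 CPM), and Eomes was not lower (6.94 and 8.07 CPM against 6.38 and 7.76 CPM). In FA Eomes averaged 7.78 CPM under the knockout label and 16.3 CPM with ERF wild type at RAS present, but 14 and 8.28 CPM at RAS deleted. The part of these markers in the Ankrd1 difference was not tested.

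**Figure D2:**
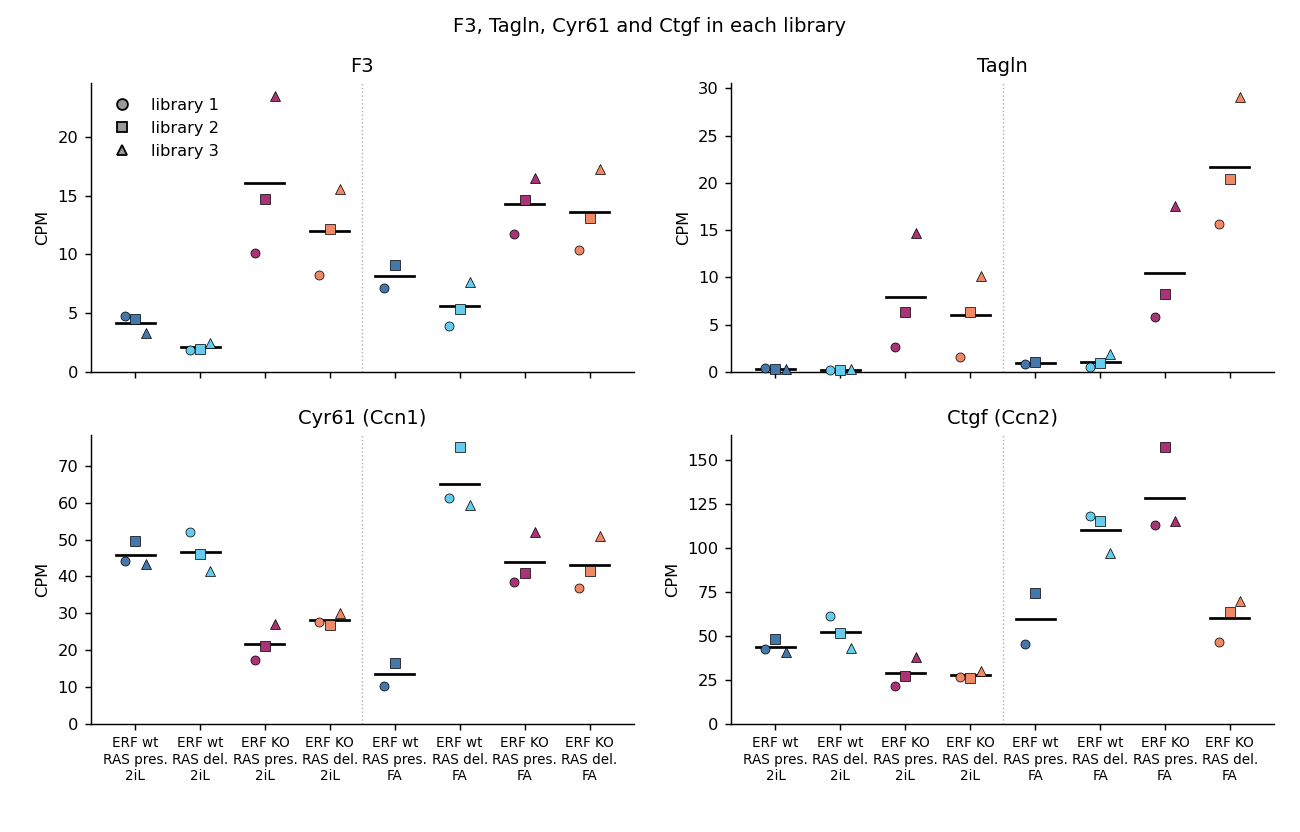
F3, Tagln, Cyr61 (Ccn1) and Ctgf (Ccn2) in CPM (linear axes) in each library, by group, with a line at each group mean and a marker shape for the library number. F3 and Tagln have their highest means in groups labelled ERF knockout, while Cyr61 and Ctgf do not follow the label: Cyr61 is lowest in FA with ERF wild type and RAS present (13.5 CPM) and Ctgf highest in FA under the knockout label with RAS present (128 CPM).

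The heat map of log2 fold changes shows which of the 10 genes were called in the 10 tested comparisons (a call is an adjusted p under 0.05 by edgeR's quasi-likelihood test and at least a 2-fold change). For ERF knockout minus wild type at RAS deleted in 2iL, 1 of 10 was higher (Ankrd1, by the direction it was chosen for) and 0 were lower, beside 5.83% of all genes called higher and 7.15% called lower. In FA, 1 of 10 was higher (Ankrd1; 8.13% of all genes) and 1 lower (Tead4; 8.48%). Nothing is read from the 1 count of Ankrd1 in either medium.

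For FA minus 2iL with ERF wild type at RAS present, 1 of 9 was higher (Amot; 13.2% of all genes) and 1 lower (Tead4; 10.8%). At RAS deleted, 2 of the 9 other than Ankrd1 were higher (Amot and Lats2; 9.96%) and 0 lower (6.59%). Ankrd1 is left out there, since it passed the low-count filter through the knockout libraries alone. Under the knockout label at RAS present, 2 of 9 were higher in FA (Amot and Axl; 12.3%) and 1 lower (Tead4; 7.46%). At RAS deleted, 3 of 10 were higher (Amot, Lats2 and Axl; 14.5%) and 1 lower (Tead4; 10.4%).

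For RAS deleted minus present in FA with ERF wild type, 2 of 9 were higher (Lats2 and Tead4; 8.93% of all genes) and 1 lower (Amot; 8.33%). Under the knockout label 0 of 9 were higher (2.81%) and 1 lower (Amot; 4.06%). In 2iL the same contrast called 0 of 9 with ERF wild type (0.692% of all genes higher, 0.506% lower) and 0 of 9 under the knockout label (0.0687% and 0.142%), by edgeR and by DESeq2. At an unadjusted p under 0.05 by edgeR there were 2 of 9 in each, Amot and Tead2 (21.5% of all genes passed that rule), then Wwtr1 and Tead2 (14.6%). These comparisons share groups and are not independent of each other, and each count lies within 2 genes of what the share of all genes gives for 9 or 10 genes.

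**Figure D3:**
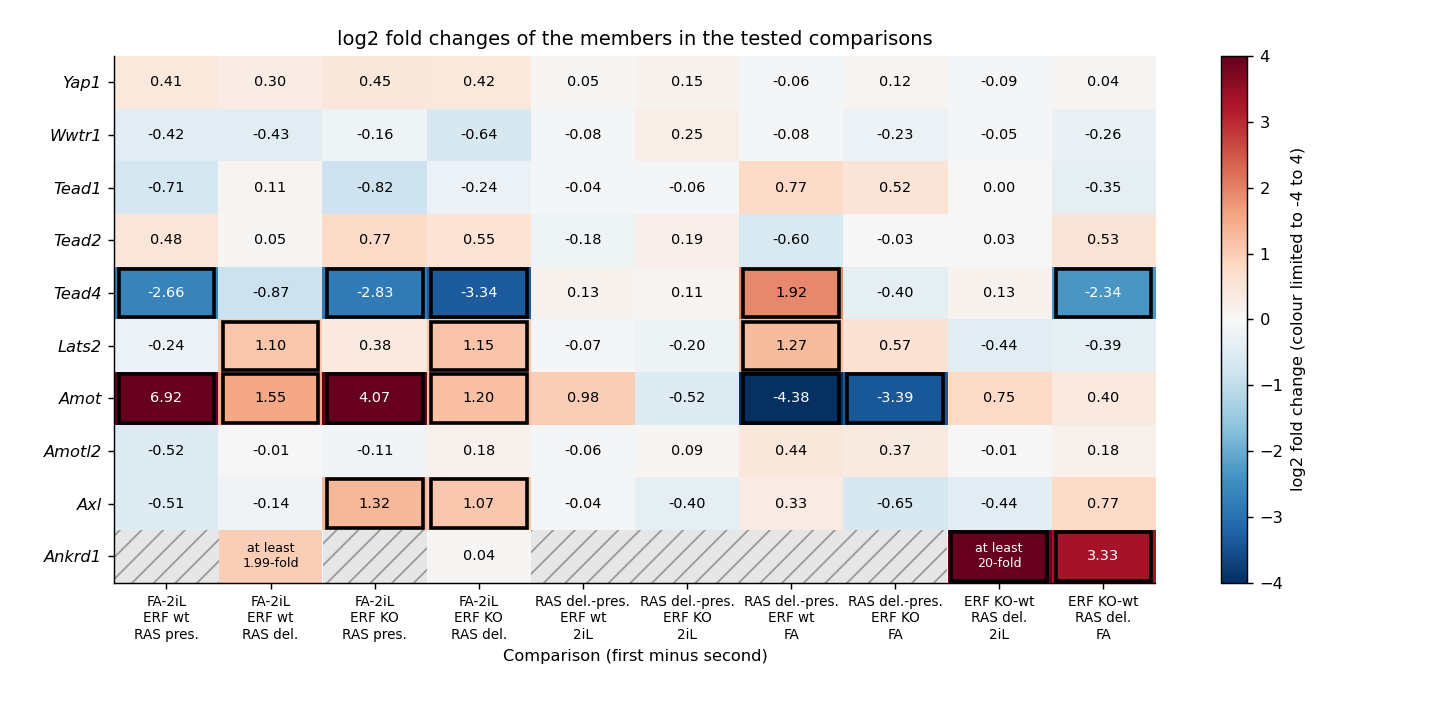
Fitted log2 fold changes of the 10 genes (rows) in the 10 tested comparisons (columns), with black frames around calls and hatching where Ankrd1 is described without a test. Amot holds calls in 6 columns and Tead4 in 5, and Yap1, Wwtr1 and Amotl2 hold no frame. The 2 frames of Ankrd1 follow from its choice, and nothing is read from them or from its unframed cell with ERF wild type. The cells "at least" give lower bounds against groups with no Ankrd1 read.

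The coactivators Yap1 and Wwtr1 lay in opposite directions between the media, each by less than 2-fold. Yap1 was between 110 and 137 CPM in the 12 libraries of 2iL and between 146 and 175 CPM in the 11 of FA, with no overlap. FA minus 2iL was 0.41 with ERF wild type and RAS present (SE 0.08, adjusted p = 0.00027), 0.30 at RAS deleted (SE 0.07, adjusted p = 0.00274), and 0.45 and 0.42 under the knockout label (adjusted p = 2.68e-05 and 4.43e-05). Wwtr1 averaged 58.4 to 76.2 CPM in 2iL and 44.8 to 56.9 CPM in FA. FA minus 2iL for Wwtr1 was -0.42, -0.43 and -0.64 where the adjusted p was under 0.05, and -0.16 (adjusted p = 0.221) under the knockout label at RAS present.

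Per length, Yap1 was the more abundant of the pair in every library. The ratio of Yap1 to Wwtr1 TPM averaged 2.37 to 2.73 in the 2iL groups and 3.76 to 5.12 in the FA groups, and ran from 2.05 to 5.56 over all libraries. RAS deleted minus present for Yap1 was 0.05, 0.15, -0.06 and 0.12 on the log2 scale in its 4 comparisons (SE 0.07 to 0.08), and no adjusted p was under 0.05. ERF knockout minus wild type at RAS deleted was -0.09 in 2iL (SE 0.08) and 0.04 in FA (SE 0.07).

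Among the TEAD factors, Tead4 (chr6:128224288-128300823, minus strand) carried the largest changes. In 2iL it stood at 38.6, 34.6 and 35.8 CPM with ERF wild type and RAS present, and group means there ran from 36.3 to 43.6 CPM. In FA it stood at 6.01 and 5.49 CPM with the same labels, a fall of 6.3-fold (log2 -2.66, SE 0.15, adjusted p = 2.39e-12). Under the knockout label it was 5.63, 6.47 and 4.94 CPM in FA at RAS present (log2 -2.83, SE 0.13, adjusted p = 7.69e-14) and 3.77, 4.08 and 5.14 CPM at RAS deleted (log2 -3.34, SE 0.14, adjusted p = 6.94e-15).

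The FA group with ERF wild type and RAS deleted kept more Tead4, at 25.5, 21.6 and 18.3 CPM. Every library of it lay below those of 2iL and above those of the other FA groups. Its own FA response was -0.87 (SE 0.12, adjusted p = 2.97e-06), less than 2-fold. In FA, Tead4 was 3.77-fold higher at RAS deleted than at RAS present with ERF wild type (log2 1.92, SE 0.15, adjusted p = 8.88e-10), and under the knockout label the same contrast was -0.40 (SE 0.15, adjusted p = 0.049).

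The fall in FA at RAS deleted was larger under the knockout label than with ERF wild type (interaction -2.47 on the log2 scale, SE 0.18, adjusted p = 1.16e-09). With ERF wild type, the FA response was weaker at RAS deleted than at RAS present (interaction 1.79, SE 0.19, adjusted p = 2.41e-07), and under the knockout label that interaction was -0.51 (SE 0.19, adjusted p = 0.0759). Beside these, 1 of the 9 members other than Ankrd1 was called lower and 0 higher for the interaction of medium with ERF label (5.74% and 5.59% of all genes). For medium with RAS, 2 of 9 were higher and 1 lower with ERF wild type (6.60% and 5.30%), and 0 higher and 1 lower under the knockout label (2.29% and 2.31%).

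The summed pluripotency markers stood apart in the same group, at 1539 to 1677 CPM in FA with ERF wild type and RAS deleted, 850 to 1025 CPM in the other 3 FA groups and 1433 to 1751 CPM in 2iL. The genes did not go together: Zfp42 averaged 366 CPM there against 22.4 to 33.5 CPM in the other FA groups, Sox2 257 against 71.8 to 95.3 CPM and Sall4 465 against 180 to 306 CPM. Pou5f1 was at 435 against 280 to 383 CPM, and Tdgf1 was lowest there, at 67.9 against 145 to 287 CPM. Their part in the levels of the Tead genes and Amot was not tested.

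Tead1 and Tead2 reached no 2-fold change in the 10 tested comparisons. Tead1 averaged 205 to 213 CPM in the 2iL groups, 121 to 174 CPM in 3 FA groups and 221 ± 39.5 CPM (SD, n = 3) in FA with ERF wild type and RAS deleted. RAS deleted minus present in FA was 0.77 with ERF wild type (SE 0.11, adjusted p = 3.90e-06). Without the 4 libraries with raised chromosome 8 it was 1.01. Only library 2 is then left at RAS present, so no p is given. Tead2 had the opposite pattern: 64.4 to 80.9 CPM in 2iL, 108 to 113 CPM in 3 FA groups and 74.5 ± 6.51 CPM (SD, n = 3) in FA with ERF wild type and RAS deleted. ERF knockout minus wild type in that setting was 0.53 for Tead2 (SE 0.07, adjusted p = 8.93e-07) and -0.35 for Tead1 (SE 0.09, adjusted p = 0.00459). Exons of Tead2 overlap the antisense gene Cd37, at a mean of 10.4 CPM. The libraries were made with a directional kit, but whether the counting used strand is not given in the sources used here.

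Compared per length, Tead2 was the main TEAD transcript: over all libraries it made up 56.1% of the summed TPM of Tead1 to Tead4, Tead1 31.2%, Tead4 9.38% and Tead3 3.26%. Tead3 took 2.7 to 2.91% in 2iL and in FA with ERF wild type and RAS deleted, and 3.47 to 4.92% in the other 3 FA groups, where it was above Tead4. From counts without length the order turned, with Tead1 at 60.4% and Tead2 at 29%. The Tead4 share ran from 12.1 to 17.6% over the 2iL libraries. It ran from 1.18 to 2.73% over FA libraries of 3 groups, and from 7.41 to 9.26% in FA with ERF wild type and RAS deleted. The Tead2 share was 42.6 to 54.9% in 2iL, 67.6 to 74.8% in the 3 FA groups and 45 to 56.6% in the fourth. The summed TEAD level itself moved less, with group means from 92.2 to 124 TPM.

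**Figure D4:**
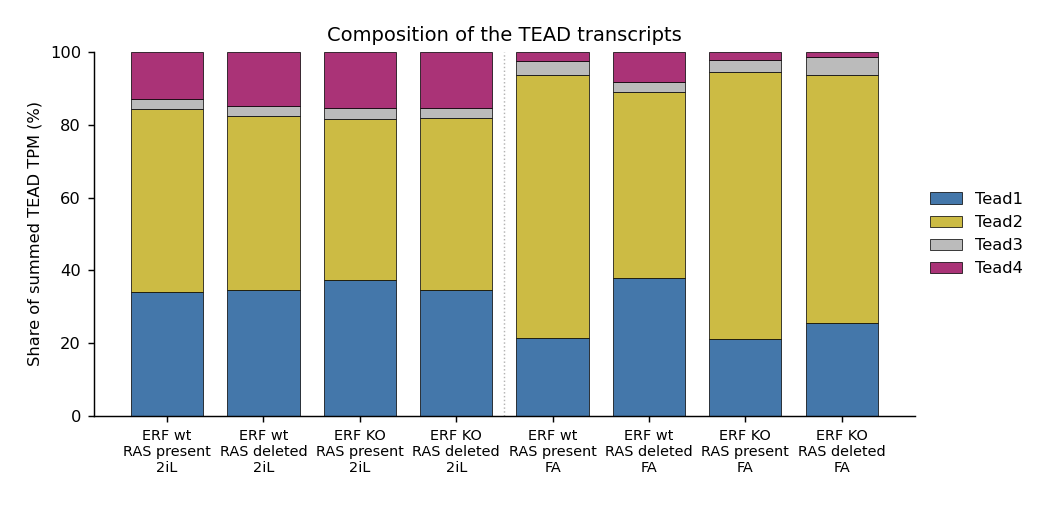
Mean share of each Tead gene in the summed TEAD TPM (percent, stacked to 100) in each of the 8 groups. Tead4 takes 12.9 to 15.5% in 2iL and 1.39 to 2.41% in 3 FA groups, while FA with ERF wild type and RAS deleted keeps 8.17% and a Tead2 share of 51.3%.

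Amot, the X-linked angiomotin, ranged from 0.7 to 157 CPM. It spans chrX:145446425-145505181 on the minus strand. With ERF wild type and RAS present it stood at 0.7, 0.952 and 1.49 CPM in 2iL and at 157 and 91.2 CPM in FA, a rise of 121-fold (log2 6.92, SE 0.31, adjusted p = 2.39e-12). Under the knockout label at RAS present it stood at 4.71, 4.87 and 5.15 CPM in 2iL and at 89.6, 83.7 and 74.5 CPM in FA (log2 4.07, SE 0.25, adjusted p = 1.72e-10). The 2iL groups differed 4.78-fold by ERF label in these libraries, which is given without a test.

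At RAS deleted the rise of Amot in FA was 2.93-fold with ERF wild type and 2.29-fold under the knockout label. With ERF wild type it went from 1.13, 2.69 and 2.23 CPM in 2iL to 4.51, 6.52 and 6.76 CPM in FA (log2 1.55, SE 0.30, adjusted p = 0.000437). Under the knockout label it went from 3.13, 4.31 and 2.76 CPM to 9.4, 8.2 and 5.88 CPM (log2 1.20, SE 0.28, adjusted p = 0.00126). In FA, Amot was 20.8-fold lower at RAS deleted than at RAS present with ERF wild type (log2 -4.38, SE 0.25, adjusted p = 1.44e-10) and 10.5-fold lower under the knockout label (log2 -3.39, SE 0.23, adjusted p = 1.34e-08). The FA response at RAS deleted was smaller than at RAS present, with an interaction of -5.36 with ERF wild type (SE 0.48, adjusted p = 1.45e-07) and of -2.87 under the knockout label (SE 0.38, adjusted p = 0.000113).

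Lats2, the Hippo kinase that phosphorylates YAP and TAZ, was high in FA where RAS was deleted. It stood there at 20.1, 24 and 24.3 CPM with ERF wild type and at 17.8, 18.1 and 16.4 CPM under the knockout label. The other 6 groups averaged 7.9 to 11.7 CPM and none of their libraries reached these levels. FA minus 2iL at RAS deleted was 1.10 with ERF wild type (SE 0.13, adjusted p = 5.58e-07) and 1.15 under the knockout label (SE 0.14, adjusted p = 2.45e-07).

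At RAS present the FA response of Lats2 was -0.24 (SE 0.15, adjusted p = 0.205) with ERF wild type, and it differed from that at RAS deleted (interaction 1.34, SE 0.20, adjusted p = 3.01e-05). With the knockout label it was 0.38 (SE 0.14, adjusted p = 0.0278), and the interaction of 0.77 was under 2-fold (SE 0.20, adjusted p = 0.0115). In FA, Lats2 was 2.42-fold higher at RAS deleted with ERF wild type (log2 1.27, SE 0.15, adjusted p = 4.83e-07) and 1.49-fold higher under the knockout label (log2 0.57, SE 0.13, adjusted p = 0.00255, under the 2-fold minimum). Exons of Lats2 overlap the predicted gene Gm49361 on the same strand (mean 1.07 CPM), so reads may be split between them. Between ERF labels at RAS deleted it was lower under the knockout label by less than 2-fold, at -0.44 in 2iL (SE 0.14, adjusted p = 0.0186) and -0.39 in FA (SE 0.13, adjusted p = 0.0168).

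Amotl2, an angiomotin that the pathway induces and that restrains it, ran from 89.3 to 169 CPM over all 23 libraries. FA minus 2iL with ERF wild type and RAS present was -0.52 (SE 0.13, adjusted p = 0.00202), from 128, 167 and 157 CPM to 89.3 and 121 CPM. In FA it was higher at RAS deleted by 0.44 (SE 0.13, adjusted p = 0.00806) with ERF wild type and by 0.37 (SE 0.11, adjusted p = 0.02) under the knockout label, and no comparison reached 2-fold. Between ERF labels at RAS deleted, knockout minus wild type for Amotl2 was -0.01 in 2iL (SE 0.11, adjusted p = 0.964) and 0.18 in FA (SE 0.11, adjusted p = 0.223).

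Axl, a receptor tyrosine kinase of GAS6, rested on few reads, 10 to 155 counts a library. It averaged 1.4 to 1.99 CPM in 6 groups. In FA under the knockout label it stood at 3.59, 4.43 and 6.18 CPM at RAS present and at 2.51, 3.51 and 3.03 CPM at RAS deleted. FA minus 2iL there was 1.32 (SE 0.39, adjusted p = 0.0087) and 1.07 (SE 0.42, adjusted p = 0.0352).

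Both Axl calls were lost when single libraries were left out. At RAS present the call was lost without 2iL library 1 (0.97, adjusted p = 0.0585) or FA library 3 (1.07, adjusted p = 0.0522), and with effective-length offsets (0.39, adjusted p = 0.425). At RAS deleted it was lost without 2iL library 1 (1.01, adjusted p = 0.0944) or library 3 (0.76, adjusted p = 0.156), or without FA library 2 (0.93, adjusted p = 0.104) or library 3 (1.06, adjusted p = 0.067), so that in 2 of these 4 the fold stayed over 2 and the p alone missed. Knockout minus wild type in FA at RAS deleted was 0.77 (SE 0.39, adjusted p = 0.124), and 1.25 (adjusted p = 0.0219) without wild type library 1, which stood at 2.8 CPM beside 1.46 and 1.08 CPM. That library is one of those with raised chromosome 8, and without all 4 of them the value was also 1.25 (adjusted p = 0.0404). With effective-length offsets, FA minus 2iL with ERF wild type at RAS present was -1.25 (adjusted p = 0.0274), against -0.51 (SE 0.47, adjusted p = 0.395) without them.

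**Figure D5:**
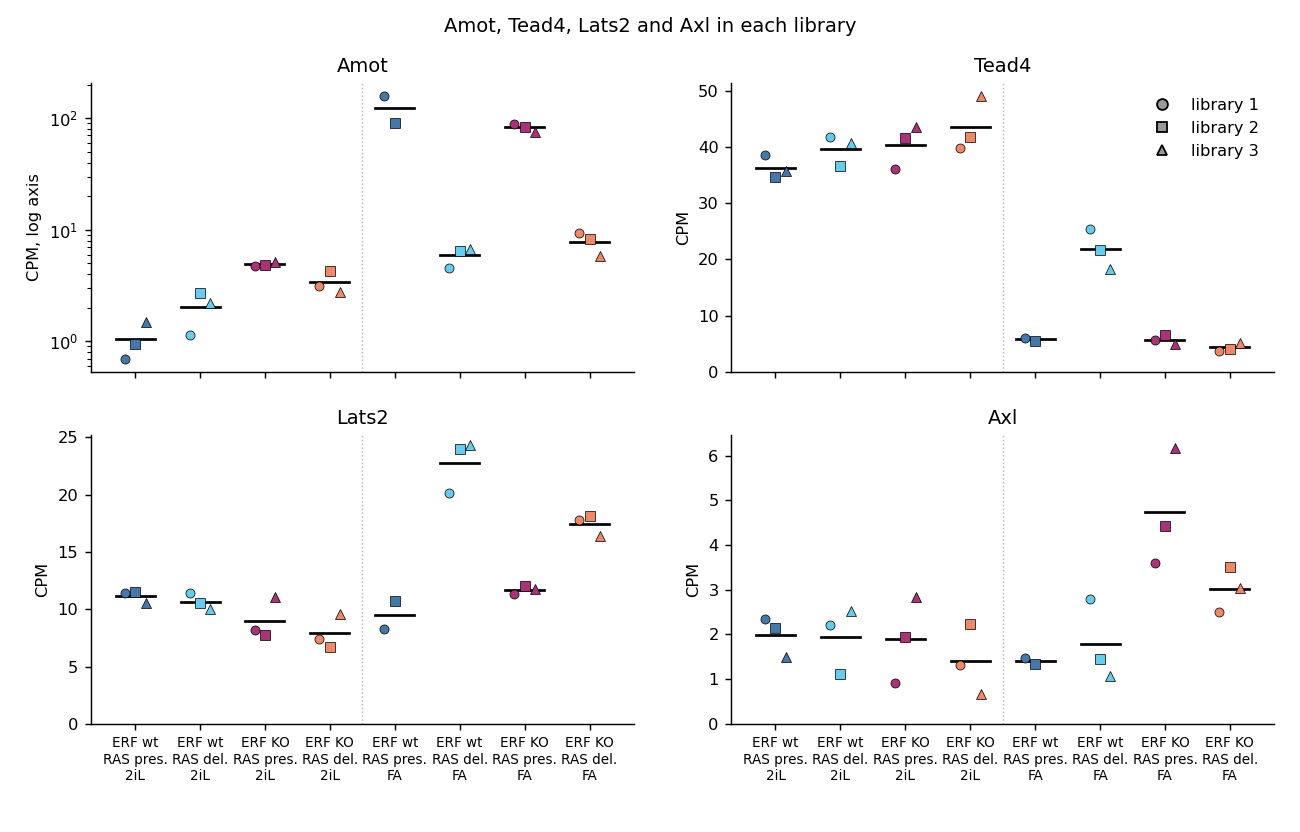
Amot (log axis), Tead4, Lats2 and Axl (linear axes) in CPM in each library, by group, with a line at each group mean and a marker shape for the library number. Amot is high in FA at RAS present (74.5 to 157 CPM), Tead4 keeps 18.3 to 25.5 CPM in FA with ERF wild type and RAS deleted, and Lats2 is high in both FA groups at RAS deleted (16.4 to 24.3 CPM).

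Other genes of the pathway were counted over lists. Of 18 further YAP target genes, 16 were tested. Between ERF labels at RAS deleted, 4 were higher and 1 lower under the knockout label in 2iL, beside 5.83% and 7.15% of all genes. In FA, 3 were higher and 1 lower, beside 8.13% and 8.48%. The median log2 differences were 0.20 and 0.27 (all genes -0.01 and 0.01). Nt5e, the ecto-5′-nucleotidase CD73, rose in both (log2 3.67, SE 0.26, adjusted p = 4.38e-10 in 2iL and 2.08, SE 0.31, adjusted p = 1.06e-05 in FA). In FA Nt5e averaged 1.25 CPM under the knockout label and 0.296 CPM with ERF wild type, so that value rests on few reads. F3 was also higher in both (2.51 and 1.26). It is given with no p, because it was also picked for likeness to Ankrd1, which was chosen for this direction. Nothing is read from its place among the calls. Myof, a ferlin of membrane repair, fell in FA (-1.93, SE 0.14, adjusted p = 5.74e-10).

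The textbook targets Cyr61 and Ctgf, matricellular proteins now named Ccn1 and Ccn2, were lower under the knockout label at RAS deleted, and at RAS present in 2iL, but not at RAS present in FA. Cyr61 stood at 27.6, 26.7 and 30 CPM under the knockout label in 2iL and at 52, 46.1 and 41.5 CPM with ERF wild type (log2 -0.73, SE 0.17, adjusted p = 0.00249). Ctgf stood at 26.6, 25.8 and 30.1 CPM against 61.3, 51.8 and 43 CPM (log2 -0.92, SE 0.22, adjusted p = 0.00306). In FA the differences were -0.60 for Cyr61 (SE 0.17, adjusted p = 0.00674) and -0.87 for Ctgf (SE 0.21, adjusted p = 0.00255). The groups did not overlap, and all 4 differences were under 2-fold. At RAS present, given without a test, Cyr61 averaged 21.8 CPM under the knockout label and 45.7 CPM with ERF wild type in 2iL, but 43.8 and 13.5 CPM in FA. Ctgf averaged 29 and 43.8 CPM in 2iL, but 128 and 59.7 CPM in FA.

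With RAS deletion in FA, Cyr61 rose 4.88-fold with ERF wild type. It went from 10.4 and 16.6 CPM to 61.3, 75.1 and 59.3 CPM (log2 2.29, SE 0.21, adjusted p = 4.60e-08), together with Myof (log2 3.18, SE 0.18, adjusted p = 1.56e-11). In libraries labelled knockout Cyr61 stood at 43.8 CPM at RAS present and 43.2 CPM at RAS deleted (log2 -0.02, SE 0.17, adjusted p = 0.936). In that comparison with ERF wild type, 3 of the 16 targets were higher and 2 lower (Nt5e -3.74 and Fjx1 -2.50 on the log2 scale), beside 8.93% and 8.33% of all genes. With the knockout label 0 were higher and 2 lower, Nt5e (-2.06, SE 0.23, adjusted p = 1.28e-06) and Ctgf (-1.10, SE 0.21, adjusted p = 0.00103), beside 2.81% and 4.06% of all genes. In 2iL under the knockout label, RAS deletion called 1 of 16 (Nt5e, 1.83, SE 0.23, adjusted p = 0.0008), beside 0.0687% of all genes called higher.

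With the medium, targets of the list were called both ways. Of 16, 3 were higher and 4 lower with ERF wild type at RAS present (13.2% and 10.8% of all genes), and 6 and 2 at RAS deleted (9.96% and 6.59%). Of the same 16 in libraries labelled knockout, 5 were higher and 2 lower at RAS present (12.3% and 7.46%), and 4 and 2 at RAS deleted (14.5% and 10.4%). Igfbp3, a carrier of insulin-like growth factors, was higher in FA in all 4 (log2 2.97, 2.26, 2.53 and 2.24, adjusted p from 2.98e-10 to 9.47e-09). Fjx1, a secreted four-jointed homolog, was higher in all 4 as well, most with ERF wild type at RAS present (log2 4.58, SE 0.23, adjusted p = 1.78e-13). Tgfb2 fell with ERF wild type at both RAS labels (-2.82 and -2.12), from 1.76 and 1.93 CPM to 0.239 and 0.441 CPM, so both values rest on few reads.

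Among 22 Hippo core genes and regulators, all tested, 4 were called higher and 2 lower in FA with ERF wild type at RAS present (13.2% and 10.8% of all genes), and 4 and 0 at RAS deleted (9.96% and 6.59%). With the knockout label 3 were higher and 0 lower at RAS present (12.3% and 7.46%), and 7 and 0 at RAS deleted (14.5% and 10.4%). Calls over all genes also leaned upward in FA. Their median log2 differences were 0.29, 0.26, 0.28 and 0.47, beside 0.03, 0.01, 0.02 and 0.03 over all genes. Ajuba, a LIM protein that binds LATS kinases, was higher in all 4 (log2 1.49, 1.22, 1.99 and 2.10, adjusted p from 1.49e-14 to 1.91e-10). The cadherin Dchs1 was also called higher in all 4, from group means of at most 0.491 CPM in 2iL. Its partner Fat4 is counted in each of these, but it averaged 1.35 CPM in FA under the knockout label at RAS deleted and at most 0.288 CPM elsewhere, so its calls rest on a few reads and nothing is read from them. Frmd6, an upstream activator of Hippo kinases, and Amotl1 fell with ERF wild type at RAS present (-1.77, SE 0.13, adjusted p = 1.65e-10 and -1.31, SE 0.10, adjusted p = 2.06e-10).

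Between ERF labels at RAS deleted, 1 of these 22 was higher and 1 lower in 2iL (Rassf1 1.63, SE 0.19, adjusted p = 4.42e-07; Taok2 -1.10, SE 0.13, adjusted p = 1.13e-06), beside 5.83% and 7.15% of all genes, and 3 were higher in FA (Fat4, Taok3 and Dchs1; 8.13%). In FA with ERF wild type, RAS deletion called 1 of 22 higher (Frmd6 1.06, SE 0.13, adjusted p = 7.89e-07) and 1 lower (Taok3 -1.66, SE 0.14, adjusted p = 2.10e-09). Beside these, 8.93% and 8.33% of all genes were called. Under the knockout label 1 was higher (Fat4, at 1.35 against 0.204 CPM) and 0 lower, beside 2.81% and 4.06% of all genes. Nothing is read from Fat4.

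Of Tead3 and the TEAD cofactors Vgll1 to Vgll4, 3 of 5 were tested. Tead3 averaged 6.76 to 13.2 CPM, highest in FA under the knockout label at RAS deleted, and reached no 2-fold change (at most 0.95, SE 0.14, adjusted p = 5.20e-06, between ERF labels in FA at RAS deleted). Vgll4, a competitor of YAP for TEAD, fell in FA with ERF wild type at RAS present. It stood at 4.16 ± 0.686 CPM (SD, n = 2), against 13.5 ± 0.839 CPM (SD, n = 3) in 2iL (log2 -1.71, SE 0.16, adjusted p = 5.25e-09). At RAS deleted in FA it stood at 9.4 ± 0.606 CPM (SD, n = 3), higher than at RAS present (log2 1.18, SE 0.16, adjusted p = 2.17e-06), with an interaction of 1.29 (SE 0.20, adjusted p = 4.49e-05). Vgll3 was called higher in FA in the other 3 settings (log2 1.44 to 1.72), at low group means of 0.644 to 2.51 CPM.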

How the data were processed

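RNA of 23 samples was depleted of ribosomal RNA and sequenced as read pairs from directional libraries, per the labels' protocols. The submitters' processing notes name bcl2fastq 2.20.0, fastp 0.20.0, Salmon (version not given in the sources used here) and the build mm10. The authors deposited, per library, estimated counts, TPM and effective lengths per gene symbol, per the file headers, and a series table of whole counts whose cells equal the rounded estimated counts (0 cells off by over 0.5). Salmon shares reads among similar transcripts, so paralogs are less certain. There were 0 further columns left unused for want of a sample. Between 17.6 and 27.9% of a library's counts fell on Gm26917.

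Estimated counts were rounded. Genes were tested in R 4.3.3 with edgeR 4.0.16 (filterByExpr, TMM, robust quasi-likelihood test, 1 model of 23 libraries with a coefficient per group), with Benjamini-Hochberg adjustment over 20372 genes. SE is the absolute log2 fold change over the square root of F. CPM use TMM-adjusted library sizes, and deposited TPM serve levels between genes. Of 12 comparisons, 10 were tested and 2 described, with 3 interactions. The code was tested on simulated data. Replicate pairs differed by a chi-square per degree of freedom of 3.04 to 44.9, so each library counts once. The labels do not say that replicates are separate cultures, so p-values measure the spread between these libraries. Estimated reads are not independent molecules. Depth (16221654 to 29874238 counts per library) limits genes of a few reads such as Ankrd1 and Axl.

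Replicate numbers paired the libraries by the data (every pair's correlation of deviations over 0.1) for FA minus 2iL at RAS deleted (lowest 0.106 with ERF wild type, 0.103 under the knockout label), FA minus 2iL under the knockout label at RAS present (0.146) and RAS deletion in 2iL (0.175 and 0.186), and not in the other comparisons. The members and gene lists were chosen with earlier results of these data known. Named genes are the members; the 3 largest calls per list and comparison, with Tead3, Ccn1 and Ccn2; and the 5 genes most like Ankrd1 (Pearson r of log2(CPM + 1), at least 5 CPM in a group, predicted genes passed over; 1 of the 5 is not reported here). Amotl1, and further comparisons of genes so named, were added after their values were seen. Some calls of a list are not named. Alternatives were RLE scaling, no low-count filter, no 2-fold minimum, DESeq2 1.42.0, length offsets, Gm26917 removed, only the compared groups with and without the replicate block, each library left out, and, chosen after seeing the data, the 4 libraries with raised chromosome 8 left out. Promoters came from RefSeq (GRCm38.p6) and gene positions from GENCODE.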

Additional observations from a re-analysis of the deposited data

Results flagged for a closer look

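Tead4 responded to FA differently by ERF label at RAS deleted: the interaction was -2.47 (log2, SE 0.18, adjusted p = 1.16e-09, edgeR quasi-likelihood test), and 3 of 3 libraries labelled ERF knockout in FA lay below all 3 with ERF wild type. With ERF wild type the FA response of Tead4 also differed by RAS, by 1.79 (SE 0.19, adjusted p = 2.41e-07). Amot differed most in its FA response by RAS, by -5.36 with ERF wild type (SE 0.48, adjusted p = 1.45e-07) and by -2.87 under the knockout label (SE 0.38, adjusted p = 0.000113). Lats2 differed by 1.34 with ERF wild type (SE 0.20, adjusted p = 3.01e-05). Each was singled out because the difference between the groups' responses passed its own test.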

How the results depend on the processing

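The calls of Amot, Tead4 and Lats2 held in every setting tried that left at least 2 libraries in each group compared, and no called direction reversed. These settings included single libraries left out. Some fits left a lone library in FA with ERF wild type and RAS present. The spread then comes from other groups, and no call of that group is read from those fits. Without the 2-fold minimum the counts of called members were 2 and 6 for ERF label at RAS deleted in 2iL and FA (39.1% and 42.8% of all genes passed); 7, 5, 7 and 8 for FA (ERF wild type at RAS present and deleted, then knockout; 49.5%, 43%, 46.9% and 55.7%); 6 and 5 for RAS deletion in FA (wild type, knockout; 41.3% and 26.4%); and 2, 6 and 4 for the interactions of medium with ERF label, with RAS at ERF wild type and with RAS under the knockout label (26.4%, 24.5% and 13.1%). The interaction of medium with ERF label gave 1 member, 3 with no low-count filter (Ankrd1, Tead4, Axl), 2 with DESeq2, 2 with the replicate block, and 1 to 2 with a library left out (2 without ERF wild type FA library 1, where Axl passed). Ankrd1 is among those counted with no filter, with DESeq2 and with the replicate block, and nothing is read from it, since it passed the low-count filter through the knockout libraries alone. The block moved no other count of members. With a library left out, counts ran from 2 to 3 (ERF label in FA), 3 to 4 and 2 to 3 (FA under the knockout label, RAS deleted and present). TEAD shares from counts without length were 60.4% for Tead1 and 29% for Tead2, against 31.2% and 56.1% per length. Leaving out the 4 libraries with raised chromosome 8 was an alternative chosen after seeing the data. The Tead1 difference for RAS deletion in FA with ERF wild type was then 1.01, and its interaction with medium 1.08. Only library 2 was left in FA with ERF wild type and RAS present, so no p is given for either.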
